A study of Mus musculus with 16 samples.

Results

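*Reg4*, *Mptx1*, *Best2* and *Kit* are 4 genes used as markers of deep crypt secretory cells, and their RNA was measured in EpCAM+ (epithelial) cells of the distal colon from 16 mice. They are 4 of the 22396 gene symbols in both deposited tables. They were selected on values of these same libraries, namely the direction of the knockout against the control in each treatment, with and without 1 control mouse. For that reason their genotype differences are described here without a test. Each treatment has its own table, and values are in TPM (transcripts of a gene per 1e+06 transcripts of the library), summed over the transcripts listed for a gene.

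Deep crypt secretory cells lie between the *Lgr5*+ stem cells at the base of colonic crypts, where the small intestine has Paneth cells. They belong to the secretory lineage, which depends on the transcription factor Atoh1, and they provide growth factors and Notch ligands to the neighboring stem cells. REG4 is a secreted C-type lectin, MPTX1 is a secreted pentraxin, BEST2 is a chloride and bicarbonate channel of the bestrophin family, and KIT is the receptor tyrosine kinase for stem cell factor.

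The control mice were Tnfr2-f/f, with loxP sites on both alleles of *Tnfrsf1b*, the gene of TNFR2 (a receptor of tumor necrosis factor). The mice labelled knockout were Vil1::Cre;Tnfr2-f/f, in which the *Vil1* promoter drives Cre in the intestinal epithelium, so both genotypes carried the floxed alleles. The mice were young adults. The labels give 3% dextran sulfate sodium (DSS), an agent that injures the colonic epithelium, in the drinking water for 6 days and collection on day 12, while the study's methods give another concentration and an earlier collection of uninjured mice. There were 4 controls and 5 knockouts given water, and 3 controls and 4 knockouts after DSS. The water-treated males came from cage a and the females from cage b, and the DSS-treated mice, all female, came from cages c and d. Cage c held only control 3 and knockout 1. Per the paper, the cells of DSS-treated mice came from injured regions, dissected away from the unaffected colon. No cage held both treatments and the tables were scaled separately. Treatment, dissected region, cage and scaling can thus not be told apart.

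The level of *Tnfrsf1b* ranged from 13.3 to 22.2 TPM in the DSS controls and from 13.5 to 27.0 TPM in the DSS knockouts, and from 11.1 to 15.5 TPM and from 9.23 to 14.8 TPM in the water-treated groups, so the genotypes overlapped in both treatments. The loxP sites flank a single exon, per the paper, and these values are of the whole gene. Whether that exon was missing from the reads was not tested. The paper reports reduced TNFR2 in EpCAM+ cells of such knockouts by flow cytometry and by RT-qPCR. Between 10310 and 10961 genes reached 1 TPM in a mouse. The 10 epithelial reference genes summed to 4918 to 6686 TPM in the water-treated mice and 4816 to 7954 TPM after DSS. Immunoglobulin transcripts took between 1.62% and 47.4% of the listed TPM in the water-treated mice and between 0.0260% and 2.26% after DSS. The 14 leukocyte markers summed to 1488 to 14516 TPM given water and to 20.5 to 486 TPM after DSS. The part of these other cells in the differences between treatments was not tested.

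The members differ in how well their reads can be assigned. On GRCm38 (mm10), *Reg4* (ENSMUSG00000027876) lies on the + strand of chromosome 3 at 98222156 to 98236748, and its 1 listed transcript has 6 exons. All 991 stretches of 31 bases in that transcript occur in no other annotated transcript. *Mptx1* (ENSMUSG00000026531) lies on the + strand of chromosome 1 at 174330518 to 174332873 and has 2 exons. Of its 769 stretches of 31 bases, 577 occur in no other transcript and the rest only in its paralog *Mptx2*, which reached at most 0.770 TPM in any mouse. *Best2* (ENSMUSG00000052819) lies on the - strand of chromosome 8 at 85007202 to 85014531. Its 3 listed transcripts share nearly all of their stretches with each other and none with another gene, so only their sum is used. *Kit* (ENSMUSG00000005672) lies on the + strand of chromosome 5 at 75574916 to 75656722. Of the 5184 stretches in its 1 listed transcript, only 38 occur in no other *Kit* transcript, so its TPM depends on how the authors' software divided reads between isoforms.

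The listed *Kit* transcript and the other long coding transcript, which the tables do not list, differ inside the coding sequence by 12 bases at the end of exon 9 (chromosome 5, 75639147 to 75639158). This in-frame stretch is shown because it sets the measured *Kit* isoform apart. The capitals mark the 12 bases present only in the listed isoform, between 9 bases on each side:

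Kit, exon 9: catttaaagGTAACAACAAAGagcaaatcc

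The promoters of *Reg4* and *Mptx1* are shown because this pair of members had the highest r across mice within each treatment, as given below. RefSeq on GRCm38.p6 gives 250 bases before and 50 bases after each start (98221906 to 98222205 on chromosome 3 and 174330268 to 174330567 on chromosome 1, + strand). The letters CAGCTG (an E-box of the kind bound by Atoh1 and related factors), TGTTTA (forkhead factors), TTTATG (Cdx factors) and TATAAA (the TATA box) were searched on both strands, and the longest stretch that both promoters hold on the gene's strand was found. Capitals mark the matches and that shared stretch:

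Reg4: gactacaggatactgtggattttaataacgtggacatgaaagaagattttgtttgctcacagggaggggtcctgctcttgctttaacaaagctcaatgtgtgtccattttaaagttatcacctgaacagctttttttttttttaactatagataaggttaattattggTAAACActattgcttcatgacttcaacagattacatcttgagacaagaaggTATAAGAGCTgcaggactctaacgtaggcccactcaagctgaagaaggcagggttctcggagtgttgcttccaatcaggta

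Mptx1: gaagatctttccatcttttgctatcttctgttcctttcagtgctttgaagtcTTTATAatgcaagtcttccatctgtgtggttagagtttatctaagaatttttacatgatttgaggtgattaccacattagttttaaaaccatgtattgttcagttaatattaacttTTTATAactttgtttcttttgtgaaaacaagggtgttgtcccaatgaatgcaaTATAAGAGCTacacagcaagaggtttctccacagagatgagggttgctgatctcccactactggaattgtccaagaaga

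The longest shared stretch was TATAAGAGCT, of 10 bases, whose first base lay 31 bases before the *Reg4* start and 29 bases before the *Mptx1* start. It occurred on either strand in 16 of 32851 mouse promoters (0.0487%), among them that of *Mptx2*, which is near 0 in these libraries. This stretch was singled out after the sequences were seen. TGTTTA matched once in *Reg4*, on the opposite strand, and is held by 13.4% of promoters. TATAAA matched at 2 places in *Mptx1*, on the opposite strand, and is held by 13.6% of promoters. CAGCTG (16.3% of promoters) and TTTATG (11.9%) had no match in these windows. A match is a match of letters only.

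*Mptx1*, the most abundant member in the water-treated mice, was also the one whose level differed most between the tables. In the water-treated controls it was at 8830, 2456, 3038 and 5826 TPM, and in the water-treated knockouts at 8651, 11629, 5905, 4621 and 10161 TPM. After DSS it was at 94.6, 430 and 1692 TPM in the controls and at 206, 5.98, 59.8 and 15.4 TPM in the knockouts. Every DSS-treated mouse lay below every water-treated mouse, as deposited and after rescaling all 16 mice by median-of-ratios factors. Such separation was seen for 4.16% of the expressed genes (1 TPM or more on average) in the deposited values and for 6.96% after rescaling. The mean log2 level after DSS minus that given water was -3.43 in the controls and -7.81 in the knockouts, with -2.37 to -4.45 and -7.04 to -8.67 when 1 mouse was left out. Fewer cells of a type and less RNA per cell cannot be told apart in these bulk samples.

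*Reg4* was at 702, 377, 360 and 580 TPM in the water-treated controls and at 1182, 1247, 958, 476 and 742 TPM in the water-treated knockouts. After DSS it was at 244, 152 and 566 TPM in the controls and at 225, 97.8, 215 and 85.1 TPM in the knockouts. Of the 7 DSS-treated mice, 6 lay below the lowest water-treated mouse, and the exception was control 3 at 566 TPM. The mean log2 level after DSS minus that given water was -0.81 in the controls and -2.61 in the knockouts. In the controls it was -1.33 without DSS control 3 and -0.38 without DSS control 2.

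*Best2*, a channel gene with far lower TPM, was at 17.3, 14.8, 20.8 and 25.9 TPM in the water-treated controls and at 35.7, 31.1, 22.8, 14.1 and 25.1 TPM in the water-treated knockouts. After DSS it was at 15.9, 3.79 and 28.6 TPM in the controls and at 14.6, 1.36, 2.92 and 4.34 TPM in the knockouts. In the DSS-treated mice 4 of 7 lay below the lowest water-treated mouse, or 6 of 7 after rescaling, and control 3 was within the upper part of the water-treated range. The mean log2 level after DSS minus that given water was -0.60 in the controls and -2.28 in the knockouts. The value in the controls was 0.14 without DSS control 2 and -1.17 without DSS control 3, so its direction rests on single mice.

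*Kit* was the lowest member and had another order of mice than the others. It was at 4.32, 0.00252, 7.75 and 16.03 TPM in the water-treated controls, at 13.4, 5.64, 11.0, 10.0 and 8.00 TPM in the water-treated knockouts, at 3.54, 5.19 and 0.416 TPM in the DSS controls and at 3.21, 0.272, 2.81 and 4.33 TPM in the DSS knockouts. The lowest values were those of water-treated control 2, DSS knockout 2 and DSS control 3. The first of these was also the lowest water-treated mouse for *Mptx1*, and knockout 2 was the lowest DSS-treated mouse for *Mptx1* and *Best2*, but control 3 was the highest DSS-treated mouse for *Reg4*, *Mptx1* and *Best2*. Since so few stretches set the listed isoform apart, a value near 0 is a low estimate of that isoform and not of the gene.

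**Figure D1:**
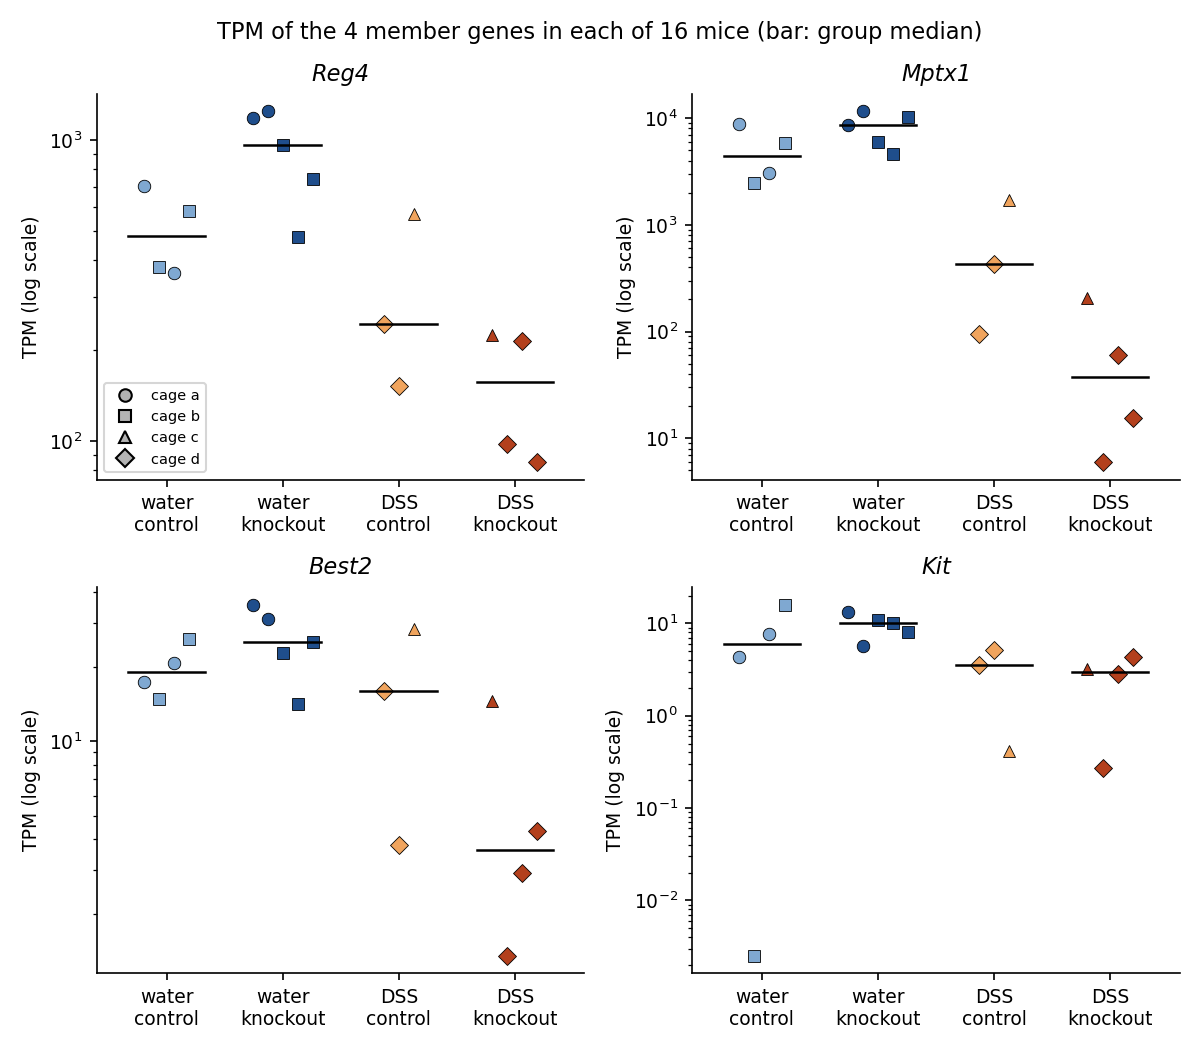
TPM of *Reg4*, *Mptx1*, *Best2* and *Kit* (log axis) in each mouse, by group, with the marker shape giving the cage and the bar the group median. All 7 DSS-treated mice lie below the 9 water-treated mice for *Mptx1*, cage c (triangles) holds the highest control and the highest knockout after DSS for *Reg4*, *Mptx1* and *Best2*, and *Kit* has 1 water-treated control at 0.00252 TPM.

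The depth behind these levels differs between members. Taken from the authors' column of mean natural logs, the geometric mean of the estimated counts was 1599 reads per mouse for *Reg4* given water and 927 after DSS, 10504 and 348 for *Mptx1*, and 69.9 and 57.2 for *Kit*. For the single *Best2* transcripts it was between 11.3 and 22.3 given water and between 13.3 and 17.4 after DSS where a value was given. Each of these transcripts was near 0 in some mice, which lowers its geometric mean. No value is given for the whole *Best2* gene, so *Best2* and *Kit* cannot be ranked by depth here.

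Within the water-treated mice, the mean log2 levels of all 4 members were higher in the knockouts than in the controls, where 50.2% of all genes tested had a higher mean. Within the DSS-treated mice all 4 were lower in the knockouts, where 47.2% of genes were. With control 3 left out all 4 remained lower, where 43.6% of genes were. These directions were part of the choice of the members, and nothing is read from the counts. The fit over all genes called 1 gene of 10899 after DSS (0.00918%) and 1 of 11046 given water (0.00905%), neither of them a gene of any list used here.

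*Mptx1* had the widest gap between genotypes after DSS. Its mean was 739 ± 842 TPM in the controls (SD, n = 3) and 71.7 ± 92.4 TPM in the knockouts (SD, n = 4), a log2 difference of -3.57 ± 1.31 (SE), and the groups overlapped because control 1 at 94.6 TPM lay below knockout 1 at 206 TPM. Without control 3 the control mean was 262 ± 237 TPM (SD, n = 2) and the log2 difference -2.55 ± 1.37 (SE). Within cage d every knockout lay below both controls, with a log2 difference of -3.41, and within cage c the single knockout lay below the single control, with a difference of -3.03. *Mptx1* was the only member without overlap in cage d, where 7.58% of genes tested had every knockout below every control.

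*Reg4* had a mean of 321 ± 218 TPM in the DSS controls (SD, n = 3) and 156 ± 74.5 TPM in the DSS knockouts (SD, n = 4), a log2 difference of -0.96 ± 0.52 (SE). Without control 3 the control mean was 198 ± 65.1 TPM (SD, n = 2) and the difference -0.44 ± 0.47 (SE), smaller than its error. The difference was -1.33 in cage c and -0.66 in cage d, where the groups overlapped.

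*Best2* had a mean of 16.1 ± 12.4 TPM in the DSS controls (SD, n = 3) and 5.80 ± 5.98 TPM in the DSS knockouts (SD, n = 4), a log2 difference of -1.35 ± 0.77 (SE). Without control 3 the difference was -0.77 ± 0.82 (SE), again smaller than its error. It was -0.92 in cage c and -1.30 in cage d.

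*Kit* had a mean of 3.05 ± 2.42 TPM in the DSS controls (SD, n = 3) and 2.66 ± 1.71 TPM in the DSS knockouts (SD, n = 4), a log2 difference of -0.08 ± 0.64 (SE). Without control 3, which was low for *Kit*, the difference was -0.71 ± 0.58 (SE). The sign differed between cages, with 1.57 in cage c and -0.84 in cage d. Unlike for the other members, leaving out this mouse made the difference larger.

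In the water-treated mice the differences of all 4 members were above 0. The mean of *Reg4* was 505 ± 165 TPM in the controls (SD, n = 4) and 921 ± 319 TPM in the knockouts (SD, n = 5), a log2 difference of 0.84 ± 0.32 (SE). The log2 difference was 1.27 in cage a, the males, and 0.57 in cage b, the females, where the groups overlapped. For *Mptx1* the means were 5037 ± 2925 TPM (SD, n = 4) and 8193 ± 2910 TPM (SD, n = 5), a log2 difference of 0.81 ± 0.43 (SE), with 0.95 in cage a and 0.79 in cage b. For *Best2* they were 19.7 ± 4.82 TPM (SD, n = 4) and 25.8 ± 8.25 TPM (SD, n = 5), a log2 difference of 0.34 ± 0.26 (SE), of which 0.78 was seen in cage a and 0.03 in cage b. For *Kit* they were 7.02 ± 6.79 TPM (SD, n = 4) and 9.62 ± 2.95 TPM (SD, n = 5), a log2 difference of 0.95 ± 0.70 (SE) that was 0.15 without control 2, the mouse near 0. The genotypes overlapped for each of the 4 members over all water-treated mice. Immunoglobulin transcripts moved along with these groups, with 1.62% to 30.9% of the listed TPM in the controls and 18.1% to 47.4% in the knockouts, and rescaling to the TPM outside immunoglobulin genes left the differences of *Reg4*, *Mptx1*, *Best2* and *Kit* at 0.83, 0.80, 0.33 and 0.96.

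The spread between mice was wider for the members than for most genes, and for *Reg4*, *Mptx1* and *Best2*, but not *Kit*, more so after DSS. After DSS the residual SD of *Mptx1* on the log2 scale was 2.12, larger than that of 99.4% of the genes tested, against a median of 0.297 over all genes. It was 1.23 for *Best2*, 1.00 for *Kit* and 0.83 for *Reg4*, larger than that of 96.7%, 94.0% and 90.7% of genes. Given water the residual SD of *Mptx1* was 0.697, larger than that of 82.6% of genes, that of *Reg4* 0.528 (75.1%), that of *Kit* 1.19 (93.8%) and that of *Best2* 0.431 (66.9%), against a median of 0.310.

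**Figure D2:**
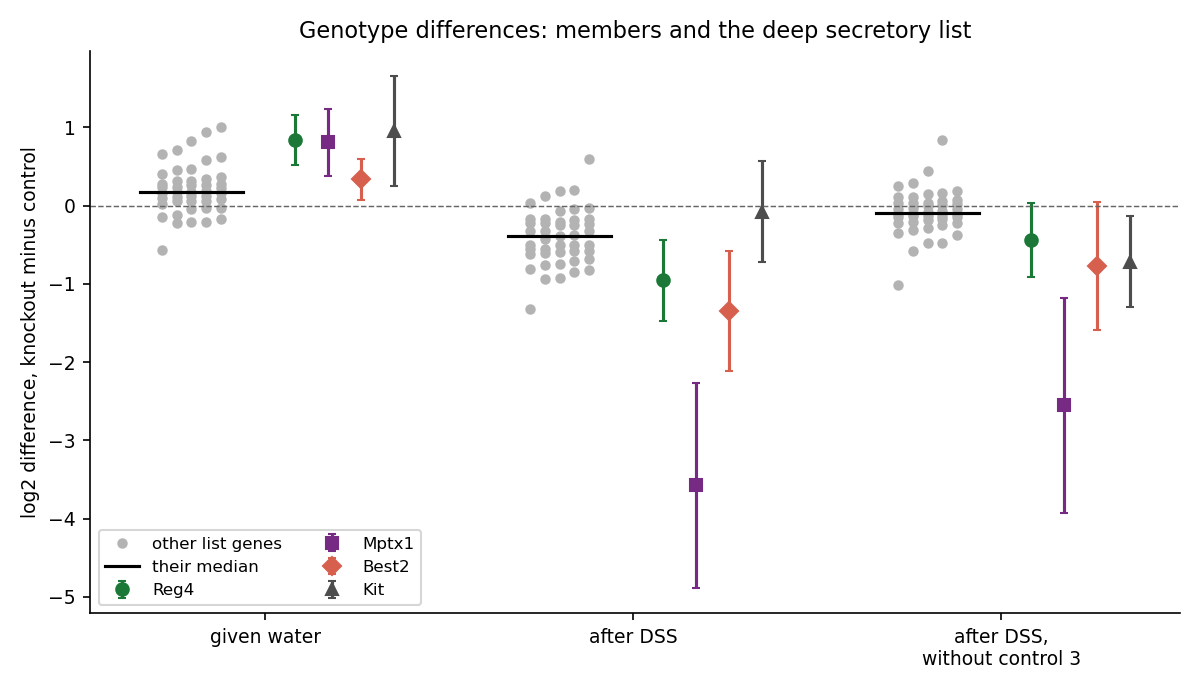
Log2 difference between knockout and control on the log2(TPM + 1) scale for the members (colored symbols with SE) and for the other genes of the deep secretory list (grey, with their median as a bar), given water, after DSS, and after DSS without control 3. The list median is 0.18, -0.39 and -0.09, and *Mptx1* lies below every other list gene in both DSS columns.

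Ratios between genes of the same library are free of the scaling of the tables. The ratio of *Mptx1* to *Reg4* was between 6.51 and 12.6 in the water-treated controls and between 6.16 and 13.7 in the water-treated knockouts. After DSS it was 0.388, 2.83 and 2.99 in the controls and 0.916, 0.0612, 0.278 and 0.181 in the knockouts. Every DSS-treated mouse was thus below every water-treated mouse, and the mean ratio was 9.39 ± 2.57 and 9.24 ± 2.88 (SD, n = 4 and 5) given water against 2.07 ± 1.46 and 0.359 ± 0.382 (SD, n = 3 and 4) after DSS. Relative to *Reg4* of the same library, *Mptx1* was thus lower after DSS in both genotypes.

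The ratio of *Best2* to *Reg4* overlapped between the treatments. It ranged from 0.0238 to 0.0577 in the 9 water-treated mice and from 0.0135 to 0.0652 in the 7 DSS-treated mice. *Spink4*, a Kazal-type protease inhibitor of goblet and deep crypt secretory cells, gave a further comparison. The ratio of *Reg4* to *Spink4* was between 0.350 and 0.664 given water and between 0.142 and 0.334 after DSS, with no overlap. Against *Muc2*, the main gel-forming mucin of goblet cells, the treatments overlapped for *Reg4*, at 1.97 to 12.7 given water and 2.09 to 7.65 after DSS, and not for *Mptx1*, at 16.6 to 138 and 0.128 to 11.5. Against *Epcam*, the surface protein used for sorting, *Reg4* was at 0.506 to 2.01 given water and 0.0952 to 0.557 after DSS, and *Mptx1* at 4.15 to 18.7 and 0.00641 to 1.66.

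**Figure D3:**
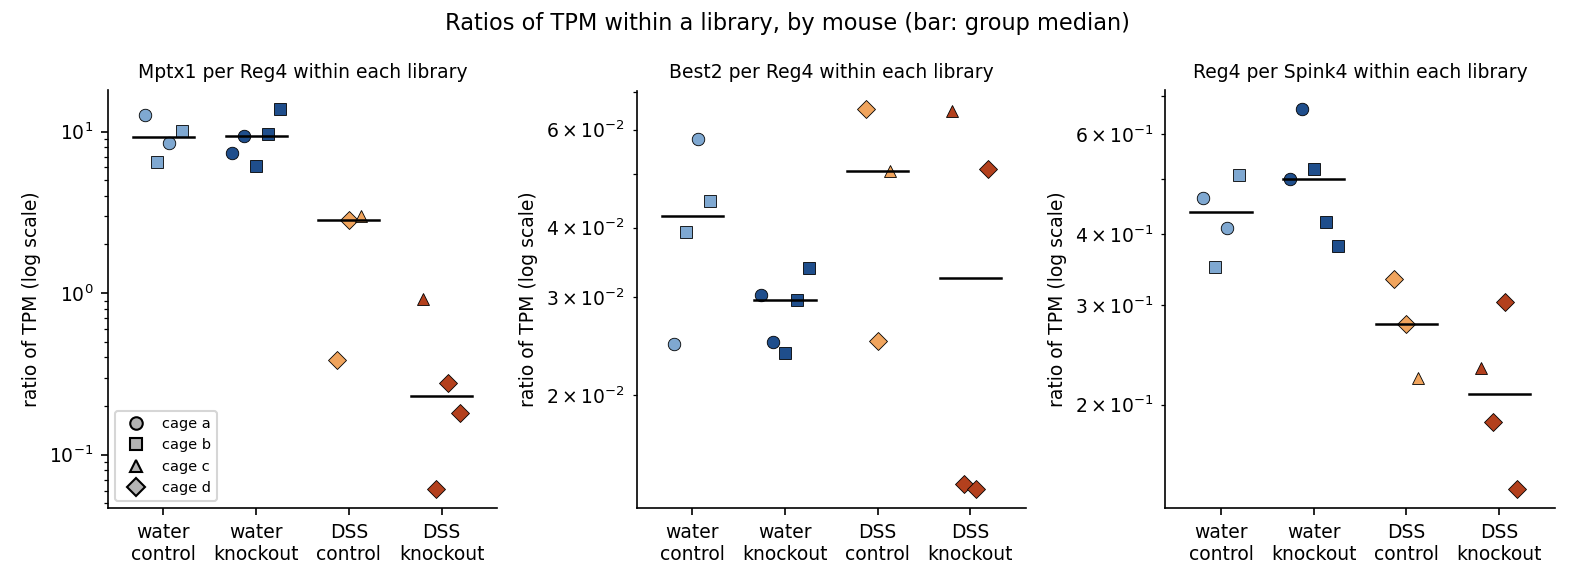
Ratio of TPM within each library (log axis) for *Mptx1* to *Reg4*, *Best2* to *Reg4* and *Reg4* to *Spink4*, by group, with the marker shape giving the cage and the bar the group median. *Mptx1* to *Reg4* and *Reg4* to *Spink4* are lower in all 7 DSS-treated mice than in the 9 water-treated mice, and *Best2* to *Reg4* overlaps between treatments.

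How the members varied together across mice was computed for 6 pairs in each table, 12 relations in all, on log2(TPM + 1) with exact two-sided permutation of the mice. The members were chosen for their direction between genotypes, and a shared shift between genotypes enters r over both genotypes, so those p-values are not independent evidence. Around the group means, which removes that shift, none of the 12 relations passed (smallest adjusted p = 0.161 by exact permutation). *Reg4* and *Mptx1* had r = 0.86 and rho = 0.85 over the 9 water-treated mice (permutation p = 0.00384 and 0.00607, adjusted p = 0.0461 and 0.0729). With the 2 mice farthest from the median of *Reg4* left out, r was 0.68 and the relation did not pass, nor did it pass without any 1 water-treated mouse other than knockouts 3 and 5 (r between 0.82 and 0.90). Around the group means r was 0.80 (permutation p = 0.0143, adjusted p = 0.161), and around the cage means r was 0.85. Over the 7 DSS-treated mice r was 0.84 and rho 0.71 (permutation p = 0.0202 and 0.0881, adjusted p = 0.0625 and 0.219), and r was 0.69 without control 3, 0.60 without the 2 farthest mice and 0.71 around the cage means.

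*Reg4* and *Best2* gave r = 0.76 and rho = 0.73 given water (permutation p = 0.0196 and 0.0311, adjusted p = 0.0625 and 0.187) and r = 0.82 and rho = 0.75 after DSS (permutation p = 0.0208 and 0.0663, adjusted p = 0.0625 and 0.219). Without the 2 farthest mice r was 0.79 and 0.80. *Mptx1* and *Best2* gave r = 0.64 and 0.74 (permutation p = 0.0640 and 0.0643, adjusted p = 0.129 for both) with rho = 0.60 and 0.68 (permutation p = 0.0968 and 0.110, adjusted p = 0.219 for both), and r was 0.40 and 0.23 without the 2 farthest mice. Of the 12 relations, only that of *Reg4* and *Mptx1* given water passed the adjusted threshold for r, and none passed it for rho.

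The 6 relations of *Kit* with the other members did not pass and had r between -0.28 and 0.53, with permutation p between 0.137 and 0.929 and adjusted p between 0.235 and 0.929. Their rho lay between -0.25 and 0.48, with adjusted p between 0.332 and 0.948. They moved with single mice in both treatments. Given water, leaving out 1 mouse gave r from -0.31 to 0.56 with *Mptx1* and from -0.04 to 0.51 with *Reg4*. With *Best2* it gave 0.29 to 0.73. After DSS, the r of *Kit* with *Mptx1*, *Reg4* and *Best2* was 0.04, -0.28 and -0.04 over all 7 mice. It was 0.71, 0.32 and 0.52 without control 3, and -0.64, -0.87 and -0.69 without knockout 2.

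**Figure D4:**
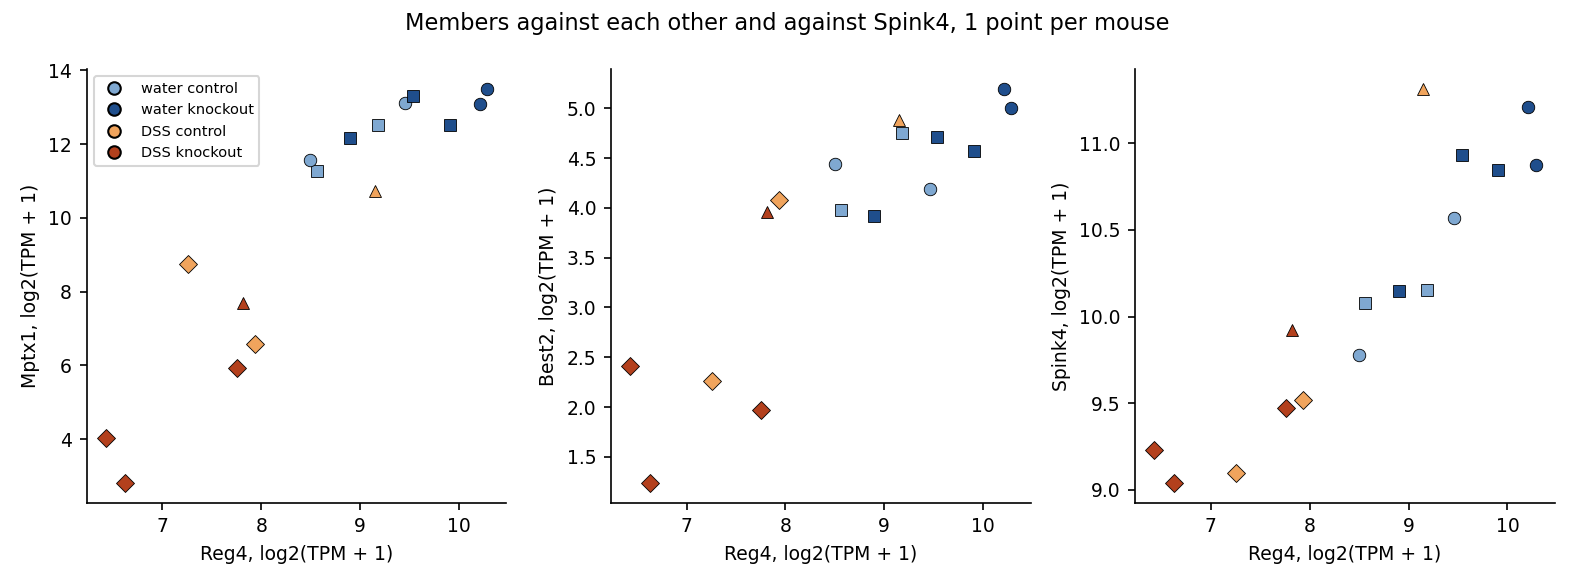
Each mouse placed by log2(TPM + 1) of *Reg4* (x axis) against *Mptx1*, *Best2* and *Spink4* (y axes), with color giving the group and marker shape the cage. *Mptx1* spans from 5.98 TPM in a DSS-treated knockout to 11629 TPM in a water-treated knockout, and within each treatment the points of all 3 panels run upward.

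By likeness of their pattern, taken as the smaller of the Pearson r over the 9 water-treated and the 7 DSS-treated mice among 10158 other genes averaging 1 TPM or more in both tables, the gene closest to *Reg4* was *Spink4* (r = 0.93 and 0.89), followed by *Mptx1* (0.86 and 0.84) and *Nelfb* (0.88 and 0.83), a subunit of the negative elongation factor. For *Mptx1* they were *Reg4*, *Fcgbp* (0.93 and 0.80), which encodes an IgG Fc binding protein of mucus, and *2610528J11Rik* (0.83 and 0.78). For *Best2* they were *Hsd11b2* (0.87 and 0.92), the enzyme that inactivates glucocorticoids, *Rep15* (0.85 and 0.89) and *Rasd2* (0.83 and 0.90), a small GTPase, and *Atoh1* had rank 5 (0.81 and 0.87). For *Kit* they were *Zfp637* (0.87 and 0.88), *Atg5* (0.77 and 0.78), an autophagy gene, and *Rad51d* (0.89 and 0.75), a DNA repair gene, and none of its 10 closest genes was on a gene list used here. These are descriptions over few mice and were not tested.

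Among the 47 other genes of the study's deep secretory reference list, 45 were tested after DSS. Of these, 40 had a lower mean in the knockouts and 5 a higher one, where 47.2% of all genes tested were lower. None of the 45 was called in either direction by limma, with 2 at an unadjusted p under 0.05, as were 2.65% of all genes tested. The median log2 difference was -0.39, against 0.02 over all genes tested. Without control 3, 28 of 44 were lower, where 43.6% of all genes were, and the median was -0.09, against 0.03 over all genes. By cage, 38 of 45 were lower in cage c with a median of -0.87, and 33 of 45 in cage d with a median of -0.14. Over all 10899 genes tested, 5879 were lower in cage c (median -0.05) and 4735 in cage d (median 0.03). Cage c sets knockout 1 against control 3, so its count also rests on that control. Given water 35 of 45 were higher in the knockouts and 10 lower, where 50.2% of all genes tested were higher. The list median was 0.18 against 0.00 over all genes. None of the 45 was called by limma (smallest adjusted p = 0.865) and 6 had an unadjusted p under 0.05, as did 5.28% of all genes tested. The list median was 0.27 in cage a and 0.18 in cage b, against -0.01 and 0.01 over all genes.

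Control 3 held the highest TPM of the 7 DSS-treated mice for 33 of those 45 genes (73.3%), against 32.9% of all other genes tested. The summed TPM of the 47 genes was 11217 in this mouse and between 4204 and 5721 in the other DSS-treated mice, and between 7186 and 10340 in the water-treated mice. As deposited, the summed level of this mouse lay above that of every water-treated mouse, while its *Mptx1* lay below all of them. The sums were not rescaled. The median-of-ratios factor over all mice was 1.24 for this mouse and 0.905 to 0.940 for the water-treated mice. The order of the sums can thus not be read across the tables.

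The most abundant of these list genes in the water-treated controls were *Spink4* at 1152 ± 267 TPM, *Agr2*, an isomerase needed for mucin folding, at 1017 ± 77.0 TPM, *Guca2a* (guanylin) at 939 ± 217 TPM, *Tff3* (trefoil factor) at 933 ± 387 TPM, and *Klk1*, a kallikrein, at 701 ± 67.7 TPM (SD, n = 4). Their log2 differences after DSS were -0.56, -0.33, -0.60, -0.94 and -0.62, and without control 3 they were 0.11, -0.21, -0.35, -0.07 and -0.15. None of them passed the test. *Spink4* was at -0.56 ± 0.50 (SE) with all mice and 0.11 ± 0.26 (SE) without control 3.

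The lowest log2 differences of the list after DSS were those of *Clca1*, a secreted goblet cell protease, at -1.32 ± 0.35 (SE), *Tff3* at -0.94 ± 0.65 (SE) and *Ccl6*, a chemokine, at -0.92 ± 0.45 (SE). Without control 3 these were -1.01 ± 0.34, -0.07 ± 0.34 and -0.48 ± 0.42 (SE). For *Clca1* with all mice the unadjusted p was 0.00621 and the adjusted p by limma 1.00, so it did not pass. The highest were those of *Acta1* (0.60), *Slc12a2*, a sodium, potassium and chloride cotransporter (0.19), and *Thbs1* (thrombospondin, 0.19), which without control 3 were 0.28, 0.02 and 0.15. Given water the highest were *Clca1* at 1.00 ± 0.44 (SE), *Clps* (colipase, 0.94) and *Trp53inp1* (0.82), and the lowest *Thbs1* (-0.57), *Acta1* (-0.22) and *Sytl2* (-0.21), none of which passed the test. *Clca1* was at 687 ± 578 TPM in the water-treated controls (SD, n = 4) and 1127 ± 246 TPM in the water-treated knockouts (SD, n = 5). After DSS it was at 158 ± 63.2 TPM in the controls (SD, n = 3) and 63.2 ± 24.0 TPM in the knockouts (SD, n = 4). Its signs were those of *Mptx1* in both treatments, but it was named for these differences. Of the 45 list genes tested, 35 were higher in the knockouts given water and 40 lower after DSS, where 50.2% and 47.2% of all genes were.

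Of the 19 genes of the study's goblet list in the files, 16 were tested after DSS, 15 with a lower mean in the knockouts and a median of -0.75, or -0.14 and 12 of 15 without control 3. Given water 11 of 17 were higher, with a median of 0.07. Over all genes tested, 47.2% were lower after DSS, 43.6% without control 3, and 50.2% were higher given water. No goblet list gene was called by limma in either treatment, with 3 genes at an unadjusted p under 0.05 in each. The goblet and deep secretory lists share genes, *Clca1* and *Muc2* among them, and both were chosen with results of these data known.

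Of the 17 genes on the secretory fate list, 16 were tested in each treatment, and *Gfi1*, at most 1.99 TPM in any mouse, was not. The list also holds Notch receptors, *Hes1* and genes of progenitors and stem cells. Its counts and medians thus pool different roles and do not give a direction of secretory fate. None of the 16 was called by limma in either treatment, with 0 genes at an unadjusted p under 0.05 after DSS and 2 given water. After DSS 10 were lower and 6 higher in the knockouts (median -0.10), without control 3 4 were lower and 12 higher (median 0.11), and given water 6 were lower and 10 higher (median 0.09). *Atoh1*, which specifies secretory cells, was at 13.4 ± 9.87 TPM in the DSS controls (SD, n = 3) and 6.48 ± 1.76 TPM in the DSS knockouts (SD, n = 4), a log2 difference of -0.75 ± 0.43 (SE) that was -0.22 ± 0.29 (SE) without control 3. Its difference given water was 0.58 ± 0.21 (SE, adjusted p = 0.865). *Spdef*, which acts after it in goblet cells, had -0.43 after DSS, 0.06 without control 3 and 0.13 given water. *Foxa1*, *Foxa2*, *Foxa3* and *Klf4*, factors of goblet cell maturation, had differences of 0.06, 0.37, -0.17 and -0.12 after DSS, 0.07, 0.66, 0.25 and 0.15 without control 3, and -0.16, 0.24, 0.05 and -0.30 given water. *Creb3l1*, *Creb3l4* and *Xbp1*, which serve the secretory pathway, had -0.25, -0.38 and 0.12 after DSS, 0.14, -0.02 and 0.15 without control 3, and 0.07, 0.29 and 0.69 given water. The direction of *Spdef*, *Foxa3*, *Klf4* and *Creb3l1* after DSS thus depended on that mouse. So did that of the Notch ligands *Dll1* and *Dll4*, with -0.08 and -0.11 after DSS, 0.30 and 0.17 without control 3, and 0.26 and 0.22 given water. The receptors *Notch1* and *Notch2* and the target *Hes1* had 0.10, 0.04 and -0.09 after DSS, 0.29, 0.01 and -0.13 without control 3, and -0.24, -0.44 and 0.12 given water. *Sox9* and *Ascl2*, of progenitors and stem cells, had -0.18 and 0.08 after DSS, -0.13 and 0.09 without control 3, and -0.08 and -0.16 given water.

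Of the members' relatives and partners, 9 of 12 stayed under a mean of 1 TPM in both tables. These were the lectins *Reg1*, *Reg2*, *Reg3a* and *Reg3d*, the pentraxins *Mptx2*, *Apcs* and *Crp* and the bestrophins *Best1* and *Best3*, and the highest value of any of them in a mouse was 1.56 TPM. *Reg4*, *Mptx1* and *Best2* thus stood above these relatives in the water-treated mice. After DSS the antimicrobial lectins *Reg3b* and *Reg3g*, near 0 given water (at most 2.94 and 2.37 TPM), ranged from 116 to 1760 TPM and from 56.8 to 504 TPM, with control 3 lowest for both. Their differences between genotypes after DSS were 1.37 ± 0.84 and 1.26 ± 0.67 (SE) and were not called, and without control 3 they were 0.64 and 0.70. *Kitl*, which encodes the ligand of KIT, was at 6.53 to 16.2 TPM given water and 12.7 to 39.6 TPM after DSS, with control 3 lowest, and its genotype differences were 0.33 ± 0.35 (SE) after DSS, -0.13 ± 0.19 (SE) without control 3, and -0.35 ± 0.19 given water (SE), neither called. *Reg4* and the *Reg3* genes, of 1 family, thus stood in opposite order between the tables.

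KIT is also carried by mast cells and by interstitial cells of Cajal in the gut wall. The 11 mast cell markers summed to 5.30 to 13.9 TPM given water and to 6.52 to 26.5 TPM after DSS, with *Ms4a2* and *Fcer1a* at 0 in every mouse, and in DSS control 1 most of the sum was *Hdc* at 22.03 TPM. The 6 markers of interstitial and smooth muscle cells in the files summed to 52.8 to 81.9 TPM given water and to 25.6 to 56.4 TPM after DSS, of which *Ano1*, a channel that epithelial cells also carry, was the highest in most mice. The part of these cells in the *Kit* values was not tested. The 10 crypt base stem cell genes summed to 98.6 to 143 TPM given water and to 253 to 355 TPM after DSS. Of this sum *Slc12a2*, also on the deep secretory list, gave 35.0 to 66.7 TPM and 116 to 188 TPM, while *Ascl2* was at 2.62 to 9.61 TPM and 2.55 to 4.80 TPM. Of the 9 tested, 7 had higher means in the DSS knockouts (median 0.12) and 8 had lower means in the water-treated knockouts (median -0.16). None was called by limma, with 1 at an unadjusted p under 0.05 after DSS and 0 given water.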

How the data were processed

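The authors sorted EpCAM+ cells of 16 mice, made stranded polyA libraries, and quantified them with kallisto and sleuth. The paper's resource list gives a single version for this pair of tools. The transcript release is not given beyond the build mm10, per the labels. They deposited TPM per transcript and mouse in 2 tables, scaled separately, which list principal isoforms only. The authors' tables also hold their mean natural log of estimated counts, used for depth, and their own comparison of genotypes (p-values, q-values, test statistics and a log2 ratio), which was not used. Each table had 29373 lines, and 385 repeats with equal values were dropped. TPM were summed by gene symbol. Library depth is not given by TPM.

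The members and lists were chosen with earlier results of these data known. The deep secretory and goblet lists are the study's, and the others are textbook lists. Genotypes were compared within a treatment with limma 3.58.1 (R 4.3.3) (log2(TPM + 1), trended prior variance, average of 1 TPM or more in the table), and a gene was called at a Benjamini-Hochberg adjusted p under 0.05. The code was tested on simulated data. No test was run between tables. Genes named were the members, expressed relatives and fate genes, list genes with the highest TPM (5) or the largest differences (3 in each direction), the 3 genes most like each member, and abundant markers of other cells. Where a gene falls outside this rule (*Muc2*, *Epcam*, *Tnfrsf1b*, *Hdc*, *Ms4a2*, *Fcer1a*), it was named for its role or after its value was seen. Transcripts and positions come from GENCODE M21 on GRCm38, which holds 96.0% of the listed transcripts in the same version. Each mouse is a separate animal. A shared replicate number does not mark a shared animal, and same-numbered mice deviated from their groups with correlations over genes of -0.20 to 0.09, so they were not treated as pairs.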

Additional observations from a re-analysis of the deposited data

Results flagged for a closer look

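*Mptx1* was flagged because every DSS-treated knockout lay below the mean log2 level of its controls, while every water-treated knockout lay above that of its own. The difference of the 2 log2 differences was -4.38, from -3.57 after DSS and 0.81 given water. On the scale of TPM the water-treated knockout 4, at 4621 TPM, lay below the control mean of 5037 TPM. The difference was not tested, since the directions were part of the choice of the gene. Of 18 groups of 4 or 5 mice examined for a mouse far from the others, over the TPM of the 4 members and the ratios of *Mptx1* and *Best2* to *Reg4*, none was flagged. Chance flags about 1 in 20 such groups.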

How the results depend on the processing

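The limits are the number of mice, 1 DSS-treated control that moved the size of the differences after DSS, and an isoform of *Kit* that few reads can tell apart. The alternatives for the members were a pseudocount of 0.1, median-of-ratios factors, rescaling to genes other than immunoglobulins or to epithelial reference genes, cage as a covariate, the replicate number as a block, and leaving out each mouse. After DSS *Mptx1* ranged from -4.62 to -2.55, *Reg4* from -1.38 to -0.44 and *Best2* from -2.09 to -0.77, with the values nearest 0 those without control 3, and *Kit* ranged from -0.71 to 0.37 with its sign changed in 4 of 13 alternatives. Given water *Mptx1* ranged from 0.52 to 1.14, *Reg4* from 0.70 to 1.06, *Best2* from 0.21 to 0.53 and *Kit* from 0.15 to 1.76. The replicate block gave -3.21 for *Mptx1*, -0.71 for *Reg4*, -1.35 for *Best2* and -0.32 for *Kit* after DSS, and 0.71, 0.90, 0.33 and 1.00 given water.

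The single call after DSS became 0 by limma with a pseudocount of 0.1, with the replicate block and with all genes above 0 TPM (277, 169 and 545 genes at an unadjusted p under 0.05), and ranged from 0 to 3 when 1 mouse was left out, with 0 without control 2 or knockouts 1, 2 or 3, 3 without control 1 and 2 without control 3. With all 4 groups in one fit and without knockout 4 the count was 1 but the gene was *Trp53* and *Dda1* in place of *Tra2a*. That given water became 0 with a pseudocount of 0.1, with the replicate block and with an average of 5 TPM or more (558, 623 and 373 genes at an unadjusted p under 0.05), became 4 with all genes above 0 TPM and 3 with all 4 groups in one fit, and ranged from 1 to 2 when 1 mouse was left out, with 2 without controls 1 or 3 or knockout 1. The 1 relation between members that passed became 0 around the group means and without the 2 farthest mice, and 0 to 1 passed without 1 mouse. Deviations from cage means, added after the data were seen, left it at 1. The cause of these changes was not tested.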

Other observations

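*Ang4*, an antimicrobial ribonuclease of Paneth and goblet cells, had an order close to that of *Mptx1* across the water-treated mice. This gene was singled out after its values were seen. Given water it was at 841, 10.8, 54.3 and 130 TPM in the controls and at 753, 779, 225, 207 and 588 TPM in the knockouts. The 4 highest mice, control 1 and knockouts 1, 2 and 5, were the 4 mice with the highest *Mptx1*, and the mice with the lowest values, controls 2 and 3, were also the lowest for *Mptx1*. After DSS *Ang4* was at 12.6, 71.6 and 2.54 TPM in the controls and at 12.2, 21.4, 14.8 and 3.55 TPM in the knockouts, where control 3, highest for *Mptx1*, was the lowest. Of the 7 Paneth cell markers used, *Ang4* among them, 4 averaged 1 TPM or more given water and 3 after DSS. The defensins *Defa24* and *Defa30*, also among the 7, were at 0 in every mouse. The relation of *Ang4* to *Mptx1* was not tested.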
